A study of Mus musculus with 2 samples.

Results

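The glycosyltransferases described here are the enzymes of the Golgi apparatus that build and cap the sugar chains of glycoproteins and glycolipids. They were found by gene symbol, as the probe sets whose only symbol began with St3gal, St6gal, St8sia, B3gnt, B3galt, B4galt, B4galnt, Galnt, Mgat or Gcnt, or with Fut and a number. Leaving out array controls, the rule found 178 of 45037 probe sets, and these belonged to 85 of 18193 genes. Fut4-ps1, a pseudogene by its symbol, was among them.

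Signals came from short-oligonucleotide arrays hybridised with biotin-labelled total RNA of G1E cells, a mouse erythroid progenitor line without GATA-1. Both groups expressed ER-GATA-1(V205G), in which GATA-1 carries a change that weakens its binding to the cofactor FOG-1 and is joined to an estrogen receptor domain, so that estradiol activates it. The untreated group was 1 array of cells at 0 h, and the estradiol group was 1 array of cells after 24 h with 1 µM estradiol. The comparison addresses which transcripts differ once the mutant is activated. There were no replicates, so no standard deviation between cultures and no p-value could be had. Activation of the mutant, estradiol itself and time in culture cannot be told apart, since no array held untreated cells at 24 h or cells without the fusion.

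Sugar chains on proteins are attached to asparagine (N-glycans) or to serine and threonine (O-glycans), and those on lipids start from ceramide. Galnt enzymes start mucin-type O-glycans, Mgat and Gcnt enzymes branch the chains, and B3gnt, B3galt, B4galt and B4galnt enzymes lengthen them. Sialyltransferases and fucosyltransferases mostly add the last sugars. On blood cells these ends carry blood group antigens, selectin ligands and ligands of sialic acid-binding lectins.

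A floor was set at a signal of 95.2, the 50th percentile of both arrays. A gene was represented by its probe set of highest mean signal, and was called measured where that probe set reached the floor on both arrays. Below, the log2 ratio always sets estradiol over untreated, and 2-fold was the threshold for calling a gene higher or lower. The error available is how far probe sets for 1 gene differ in log2 ratio, a pooled SD of 0.25 (4586 genes, 12514 probe sets), so that 2 SD correspond to 1.42-fold. By tertile of signal, 2 SD were 0.60 for dim, 0.50 for middle and 0.40 for bright genes on the log2 scale. The tertiles were formed from a gene's mean signal over its measured probe sets, but a gene was placed by its brightest probe set. A gene with a dim second probe set could therefore get a narrower limit. The limit covers probe noise and transcript forms, not differences between cultures.

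The floor was reached by 49.2% of all probe sets on the untreated array and 50.9% on the estradiol array. For Gata1 the signals were 1264 and 1191, but whether it reads the fusion transcript is not known, so it does not check the labels. Erythroid markers were present, with 6 of 8 genes measured, and a summed signal over the list of 14249 untreated and 20932 with estradiol. Among them Alas2 was 12.1-fold higher, Hbb-bh1 at least 6.19-fold and Slc4a1 1.82-fold. Klf1, Hba-a1, Rhag and Epor had log2 ratios of 0.62, 0.48, 0.10 and -0.13. Epb42 was below the floor on both arrays, at 92.3 untreated and 20.2 with estradiol. The largest changes in signal behind the erythroid sum were those of Alas2 (283 to 3430) and Klf1 (4554 to 6997). Of 11 mast cell and basophil markers 7 were measured, and their summed signal over the list was 21588 untreated and 16043 with estradiol. The largest change in signal behind that sum was Cpa3, from 6616 to 1146. Of the 7 measured markers 3 had log2 ratios above 0 and 4 below. Within that list Tpsab1 was 24.4-fold higher, and Cpa3 and Ms4a2 were 5.77-fold and 2.65-fold lower. Hdc was at least 1.59-fold higher and Fcer1a at least 1.52-fold lower, each with 1 array below the floor. No marker had a signal of 0, and the megakaryocyte, neutrophil and monocyte, lymphoid, embryonic stem cell and stromal lists had at most 2 measured members each. The part of the erythroid and mast cell differences in the results below was not tested. With bulk RNA, fewer cells of a type and less RNA per cell cannot be told apart.

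Glycosyltransferase genes differed singly and in both directions. The polysialyltransferase gene St8sia4 and the core fucosyltransferase gene Fut8 were 4.81-fold and 3.62-fold lower after estradiol, and the sialyltransferase gene St3gal4 was 2.26-fold higher. Of the 85 genes, 40 were measured, 8 reached the floor with estradiol alone and 37 lay below it on both arrays. No member reached it in untreated cells alone. Of all 18193 genes, 10240 were measured, which is 56.3% against 47.1% of the members. Of the rest, 745 reached the floor with estradiol alone, 444 in untreated cells alone, and 6764 lay below it on both arrays. The 2 lower genes are 5.0% of the 40 measured, where 1.10% of all 10240 measured genes were lower by that size. The 1 higher gene is 2.5% of the 40, close to the 2.04% of all measured genes that were higher. At 1.5-fold, 8 members were higher (20.0%) and 4 lower (10.0%), against 7.11% and 4.85% of all measured genes. The other 28 of 40 lay within 1.5-fold, as did 88.0% of all measured genes. The median log2 ratio was -0.04 for the members and 0.00 for all measured genes, the mean over members was -0.01, and 19 members lay above 0 and 21 below. Measured members beyond 2 SD for their signal numbered 15, of which 9 were higher and 6 lower. They are 37.5% of the members, where the same limit was passed by 15.8% of all measured genes. The limit comes from probe sets of all genes, whose pooled SD was 0.25, while that of the members' own probe sets was 0.38. B4galnt1, Mgat4a and Gcnt1 passed the limit on 1 of 2 measured probe sets, and B3gnt2, St3gal5 and St8sia4 on both. Mgat4a passed only because it was placed by its brightest probe set.

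**Figure D1:**
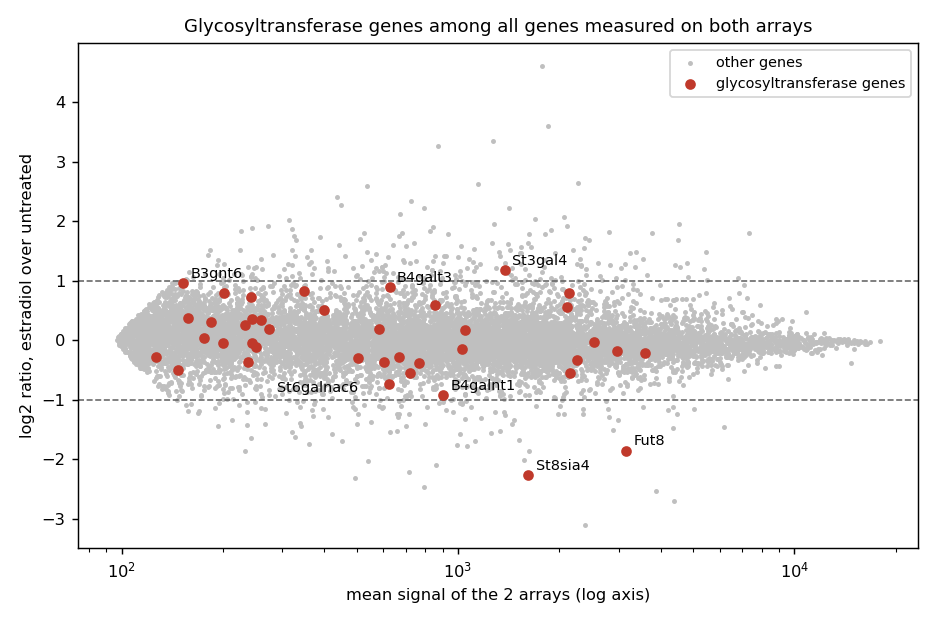
The log2 ratio of estradiol over untreated for each gene measured on both arrays is plotted against the mean signal of the 2 arrays (log axis), with 40 glycosyltransferase genes in red and the other genes in grey; dashed lines mark 2-fold. St8sia4 (-2.27) and Fut8 (-1.85) lie below the lower line and St3gal4 (1.18) above the upper line, while B3gnt6 (0.95) and B4galnt1 (-0.93) lie just inside.

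The upstream windows of the 3 genes past 2-fold are shown because the fusion protein is a GATA factor, whose family is named for the letters GATA in its binding motif. Each is the stretch of 250 bases before a transcription start in RefSeq, build GRCm38.p6, read in the direction of the gene. The St8sia4 window is chr1:95667595-95667844 on the minus strand, the Fut8 window is chr12:77237854-77238103 on the plus strand and the St3gal4 window is chr9:35116865-35117114 on the minus strand. Capitals mark matches, on either strand, to AGATAA, where the first letter could also be T and the last letter also G.
St8sia4: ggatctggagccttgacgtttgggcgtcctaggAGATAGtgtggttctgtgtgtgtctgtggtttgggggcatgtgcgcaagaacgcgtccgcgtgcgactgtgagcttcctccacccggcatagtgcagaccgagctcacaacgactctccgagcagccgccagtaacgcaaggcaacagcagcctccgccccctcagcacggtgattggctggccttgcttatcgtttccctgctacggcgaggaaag
Fut8: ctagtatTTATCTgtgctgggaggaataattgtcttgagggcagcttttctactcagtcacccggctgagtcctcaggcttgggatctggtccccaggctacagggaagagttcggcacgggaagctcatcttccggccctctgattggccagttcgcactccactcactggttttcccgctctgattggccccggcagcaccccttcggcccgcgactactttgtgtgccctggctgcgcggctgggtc
St3gal4: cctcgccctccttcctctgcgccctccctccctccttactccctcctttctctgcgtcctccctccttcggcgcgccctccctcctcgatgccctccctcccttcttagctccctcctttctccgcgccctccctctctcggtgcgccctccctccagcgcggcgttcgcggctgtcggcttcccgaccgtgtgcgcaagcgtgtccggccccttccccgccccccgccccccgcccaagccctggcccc

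The St8sia4 window held 1 match, AGATAG on the gene's own strand, 217 to 212 bases before the start. The Fut8 window printed is the most upstream of 4, and its 1 match, printed as TTATCT, is AGATAA on the opposite strand, 243 to 238 bases before the start. Of the other Fut8 windows 1 held a match. The St3gal4 window held none of these letters. Windows with a match made up 26.5% of all 32851 windows of this length and 23.0% of the 87 windows of member genes. A window, with or without a match, was available for 62 of the 85 member genes. The matches are a description of the letters and not of binding.

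Among the sialyltransferases the St8sia family held the largest difference. St8sia enzymes link sialic acid to sialic acid, and St8sia4 and St8sia2 make the long polysialic acid chains carried by few proteins. On its main probe set the signal of St8sia4 went from 2682 to 557 with estradiol, or -2.27 on the log2 scale. The second went from 396 to 174, which is -1.19 and 2.28-fold lower, so both were past 2-fold but differed in size by more than 2 SD. St8sia2, the other polysialyltransferase, read 137 and 178 (log2 ratio 0.37) and 128 and 149 on its second probe set (0.22), both within the limit of 0.60. The 2 polysialyltransferase genes thus had log2 ratios of opposite sign, of which that of St8sia4 alone passed the limit.

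The remaining St8sia genes had low signals. St8sia5, which acts on gangliosides, read 183 and 302, a log2 ratio of 0.72 and 1.65-fold higher. St8sia6, which acts mainly on O-glycans, read 174 and 178 (0.04). St8sia1, the GD3 synthase gene, read 18.2 and 42.1 and was below the floor, as was St8sia3 on its main probe set. Another St8sia3 probe set went from 26.4 to 100.3, just over the floor, which gives a bound of 0.08.

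St3gal enzymes attach sialic acid to galactose, and 5 of the 6 genes were measured. St3gal4, which caps lactosamine chains and takes part in making selectin ligands, read 846 untreated and 1916 with estradiol on its single probe set, a log2 ratio of 1.18. St3gal5, the GM3 synthase that makes the first ganglioside, read 1706 and 2501 on its main probe set (0.55, 1.47-fold higher). Its second probe set read 1238 and 2693 (1.12, 2.18-fold higher), so the gene lay beyond 2 SD on both and past 2-fold on 1. St3gal3, which caps chains of glycoproteins, read 331 and 469 (0.50) and 125 and 173 on its second probe set (0.46), within the limit of 0.60.

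St3gal2 and St3gal6 had small negative log2 ratios. St3gal2, which sialylates O-glycans and gangliosides, read 2516 and 2005 (-0.33), with -0.27 and -0.26 on its other probe sets, all within the limit of 0.40. St3gal6, a second enzyme of lactosamine ends, read 3867 and 3315 (-0.22). Of its 4 measured probe sets 3 ranged from -0.36 to -0.15, and the dimmest read 219 and 398, a log2 ratio of 0.86. The probe sets of St3gal6 therefore disagree in sign. St3gal1, which caps O-glycans, read 22 and 23.1, below the floor.

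The St6gal and St6galnac families attach sialic acid to another position of galactose or to N-acetylgalactosamine, and 6 of their 8 genes were measured. St6galnac6, a ganglioside enzyme, read 778 and 466, a log2 ratio of -0.74 and 1.67-fold lower, and was the family member that lay beyond 2 SD. St6galnac4 and St6galnac3, which add a further sialic acid to sialylated O-glycans, had log2 ratios of -0.37 (678 to 526) and -0.29 (554 to 452). Their second probe sets gave -0.03 and 0.28, the latter of opposite sign. St6galnac5 read 229 and 289 (0.33) and St6galnac1, the sialyl-Tn enzyme, 256 and 293 (0.20). St6gal1, which caps N-glycans, read 164 and 203 (0.31), with 0.15 on its second probe set. Apart from St6galnac6, these measured genes lay within the limits for their signal, and St6gal2 and St6galnac2 were below the floor. St6galnac2 read 10.7 untreated and 73.4 with estradiol, for which no ratio was formed.

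Fut8 differed far more than the other fucosyltransferase genes measured. It adds the core fucose to the innermost sugar of N-glycans and has no known substitute for that step. Its signal was 4963 untreated and 1372 with estradiol, which gives -1.85 on the log2 scale. The 2 other Fut8 probe sets lay below the floor on both arrays, at 63.4 and 8.50 and at 58.2 and 32.8, and so gave no ratio. Fut10, Fut11 and Fut4-ps1 had log2 ratios of 0.36 (214 to 274), -0.11 (260 to 241) and 0.26 (212 to 253), within the limit of 0.60. Fut4 and Fut7, which make the fucosylated ends of selectin ligands, were below the floor, at 7.0 and 42.7 for Fut4 and at 83.5 and 67.0 for Fut7. Fut1 and Fut9 were below it as well, and Fut2, which makes the H blood group structure, read 18.7 and 101, a bound of 0.09.

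**Figure D2:**
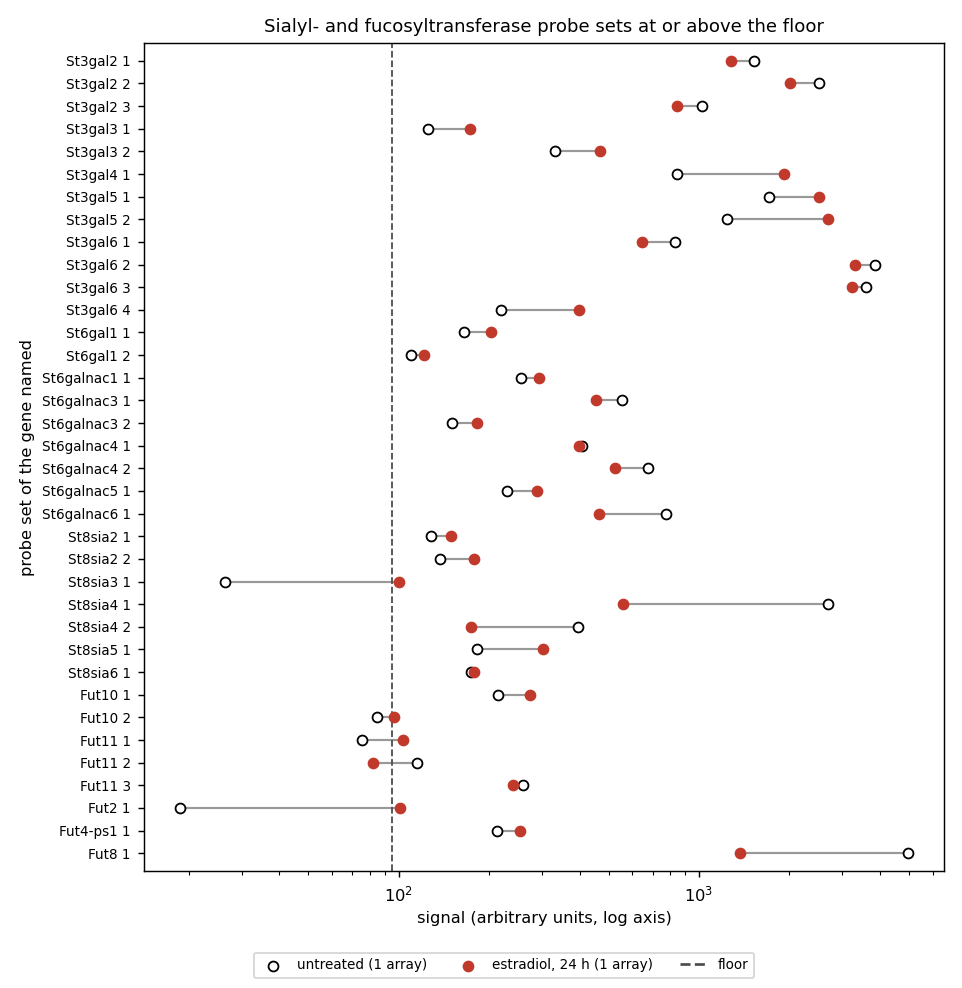
Signals (log axis) of the sialyl- and fucosyltransferase probe sets that reached the floor on at least 1 array are drawn for the untreated array (open) and the estradiol array (red), with the floor at 95.2 dashed; a number after a symbol counts the probe sets of that gene. The longest shifts among probe sets measured on both arrays are those of St8sia4 (2682 to 557) and Fut8 (4963 to 1372) to the left, and the probe sets of St3gal4 and St3gal5 shift to the right.

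Among enzymes that lengthen chains, 3 genes of the B3gnt family were at least 1.5-fold higher, of 4 measured and 9 in all, where 7.11% of all measured genes were. Most of the family adds N-acetylglucosamine to galactose. B3gnt2, the main enzyme of poly-lactosamine chains, read 1572 and 2708 (log2 ratio 0.78, 1.72-fold higher), and its second probe set 913 and 1685 (0.88). B3gnt7, of keratan sulfate chains, read 148 and 256 (0.79). B3gnt6, which makes a mucin core, read 104 and 201 (0.95). The signals of B3gnt6 and B3gnt7 without estradiol were near the floor, while B3gnt2 was well above it on both arrays. B3gntl1 read 268 and 208 (-0.36), and B3gnt9 had a bound of 0.26.

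Galactosyltransferase genes mostly differed little. B4galt3, which adds galactose to N-glycans and other chains, was the exception at 439 and 815, a log2 ratio of 0.89 and 1.85-fold higher. B4galt1, the enzyme shared with lactose synthesis, read 991 and 1113 (0.17). B4galt7, which builds the linker of proteoglycans, read 248 and 239 (-0.05), and B3galt6 of the same linker 733 and 603 (-0.28). The second probe set of B3galt6 gave 0.30, of opposite sign. B4galt6 gave -0.28 and 0.25 over its 2 measured probe sets, and B3galt5, of blood group precursor chains, -0.05 and 0.71. For these 3 genes the probe sets disagreed in sign. B3galt4, a ganglioside enzyme, read 171 and 122 (-0.49), and B4galt2 had a bound of 0.34.

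The B4galnt1 gene was 1.90-fold lower on its main probe set. It encodes the GM2 and GD2 synthase, which acts on the products of St3gal5 and St8sia1. The main signals were 1184 and 622 (-0.93), but the second probe set stood at 169 on both arrays (-0.00), so the value rests on 1 of 2 measured probe sets. The 2 St3gal5 probe sets and the main B4galnt1 probe set, for successive steps of ganglioside synthesis, thus had log2 ratios of opposite sign. Ugcg, whose enzyme supplies the glucosylceramide that starts these lipids and which is not a family member, read 5590 and 3625 (-0.62). Its 3 measured probe sets ranged from -0.78 to -0.49. B4galnt2, the Sda antigen enzyme, had a bound of 0.32.

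The Galnt family had 4 measured genes among 18, and 13 lay below the floor on both arrays. Galnt1, which starts O-glycans in many tissues, read 3157 and 2795 (-0.18) and 1346 and 1091 (-0.30). Galnt7, which adds to chains already started, read 867 and 663 (-0.39), with -0.13 and -0.03 on its other probe sets. Galnt10 gave 0.18 and -0.54 on its 2 measured probe sets, which differed in sign. Galnt16 was the member beyond its limit, at 252 and 447, a log2 ratio of 0.83 and 1.78-fold higher. Galnt18 had a bound of 0.51.

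The measured branching enzymes of N-glycans, 4 of 10 Mgat genes, lay within 1.5-fold. Mgat1, which opens the way to complex N-glycans, read 1085 and 976 (-0.15), and Mgat2, which starts the second antenna, 2551 and 2511 (-0.02). Mgat4a and Mgat4b, which add a further antenna, read 853 and 585 (-0.55) and 2544 and 1747 (-0.54). Both were beyond 2 SD for the signal of their brightest probe set. Placed by its mean signal over both measured probe sets, Mgat4a would get the dim limit of 0.60 and lie within it. The second Mgat4a probe set gave -0.05. Mgat5, of poly-lactosamine-bearing branches, had a bound of 0.33, and the bisecting enzyme gene Mgat3 was below the floor.

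Of 4 genes of the Gcnt family, which branches O-glycans and poly-lactosamine, 1 was measured. Gcnt1, which branches O-glycans on leukocytes, read 684 and 1028 (0.59, 1.5-fold higher) and 651 and 737 on its second probe set (0.18). Gcnt2, which branches poly-lactosamine to form the I blood group antigen, read 92.6, just below the floor, and 221 with estradiol, at least 2.32-fold higher. Another of its 8 probe sets read 103 and 85.6, a bound of -0.12, and the other 6 lay below the floor on both arrays, so the higher reading rests on 1 probe set. Of all 745 genes that reached the floor with estradiol alone, 5.37% had a bound past 2-fold, against 1 of the 8 members of that kind. Gcnt3 had a bound of 0.15.

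**Figure D3:**
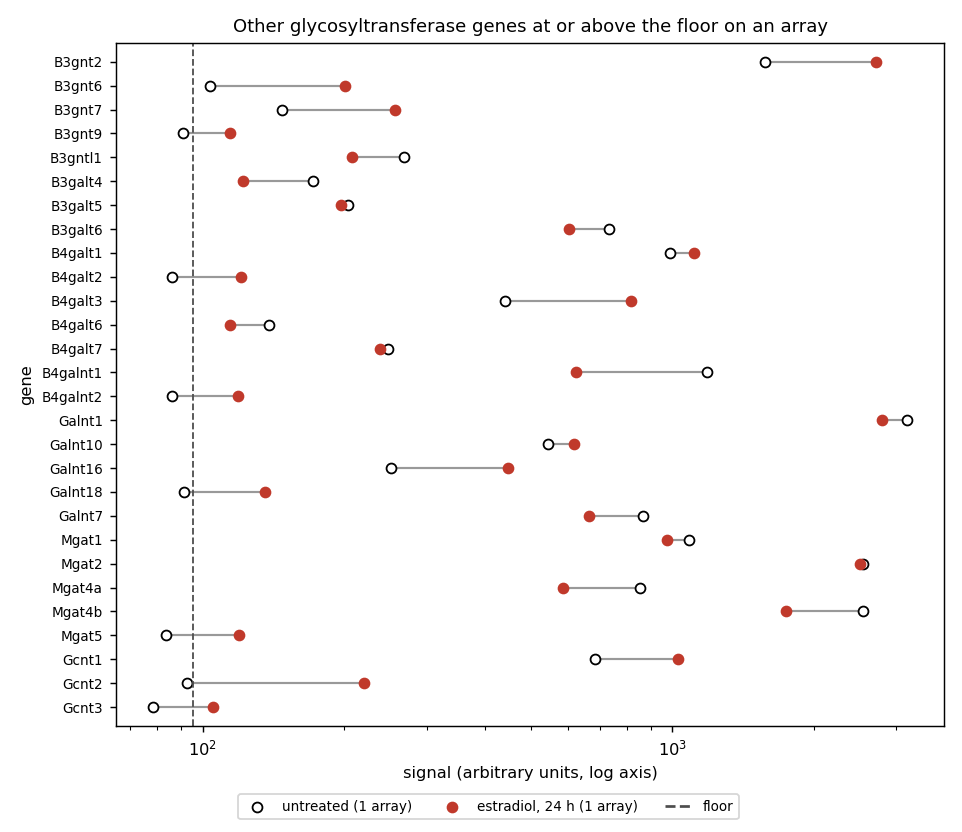
Signals (log axis) of the chain-starting, lengthening and branching genes that reached the floor on at least 1 array are drawn for the untreated array (open) and the estradiol array (red), with the floor at 95.2 dashed. B3gnt2 (1572 to 2708), B4galt3 (439 to 815) and Galnt16 (252 to 447) shift to the right and B4galnt1 (1184 to 622) to the left.

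Probe sets of the same member gene did not always give the same value. More than 1 probe set was measured for 21 member genes. In 14 of these the log2 ratios lay on the same side of 0, and in 9 the probe sets spread by more than 0.50. That value is 2 SD of a single probe set about its gene's mean, so a spread between probe sets passes it more easily. Neither count was taken over all genes, so they do not show whether the members disagree more often than others. Their pooled SD was 0.38 over 46 probe sets, beside 0.25 over all such genes, a difference that was not tested. Read at the level of probe sets, 2 of 65 measured were at least 2-fold higher, those of St3gal4 and St3gal5, and 3 were lower, both of St8sia4 and that of Fut8. Of all 21054 measured probe sets, 2.03% were higher and 1.01% lower.

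**Figure D4:**
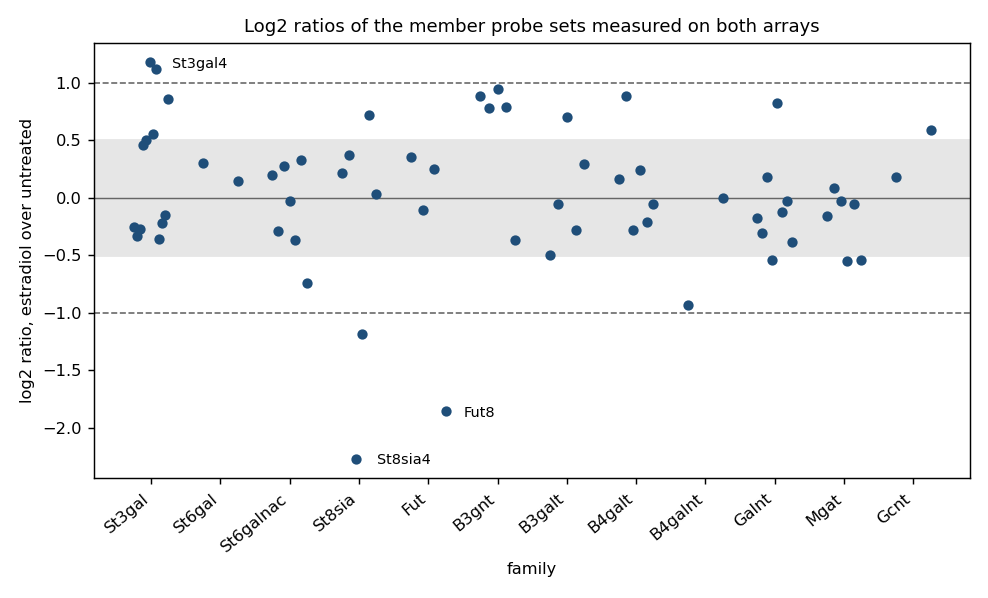
Each point gives a probe set measured on both arrays as its log2 ratio (estradiol over untreated), by family; the grey band is 2 SD (0.50) between probe sets of the same gene and dashed lines mark 2-fold. The 12 St3gal points lie on both sides of 0, from -0.36 to 1.18, and 4 of the 5 B3gnt points lie above the band.

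No measured gene that supplies the donor sugars was past 2-fold on its main probe set. Of 25 measured donor synthesis and transport genes 2 were at least 1.5-fold higher and 2 lower (8.0% each, against 7.11% and 4.85% of all measured genes), and their median was 0.01. Cmas, which activates sialic acid, read 2327 and 3799 (0.71), while Gne, the enzyme that commits to sialic acid synthesis, read 809 and 733 (-0.14) and the sialic acid carrier gene Slc35a1 1358 and 1054 (-0.37). Slc35c1, the Golgi carrier of activated fucose, read 673 and 415 (-0.70, 1.62-fold lower), and the other fucose donor genes Gmds, Gfus, Fpgt and Fcsk ranged from -0.29 to 0.30. Uap1, which makes activated N-acetylglucosamine, read 4901 and 2960 (-0.73), with measured probe sets from -1.22 to -0.69. Ugp2 read 1169 and 1174 (0.01), with measured probe sets from -0.34 to 0.17. A further Ugp2 probe set read 210 and 34.6, a bound of -1.14. Slc35d2, a sugar nucleotide carrier gene, read 98.2, close to the floor, and 152 (0.63).

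Other genes of glycan assembly were described from 3 further lists. Of 27 measured genes that assemble and transfer the lipid-linked N-glycan precursor none was 2-fold apart, and the median was -0.07. At 1.5-fold Alg11 was higher (0.67) and Alg6 lower (-0.61, with 0.01 on its second probe set). That is 3.70% each way, where 7.11% of all measured genes were higher and 4.85% lower by that size. All 8 measured trimming glycosidase genes lay within 1.5-fold, from -0.53 for Mogs to 0.57 for Man2a2, with a median of 0.01. Of 13 measured genes of other chain starts none was 2-fold apart, and the median was -0.00. At 1.5-fold 1 was higher (7.69%) and 2 were lower (15.4%), beside the same 7.11% and 4.85% of all measured genes. Among the 13 were C1galt1, which extends the first sugar of mucin-type O-glycans, and C1galt1c1, the gene of its chaperone. Their log2 ratios were 0.55 (1008 to 1471) and 0.74 (849 to 1414). The 3 C1galt1 probe sets ranged from 0.51 to 0.70. B3galnt2 read 2129 and 1233 (-0.79), with -0.52 on its second measured probe set.

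**Figure D5:**
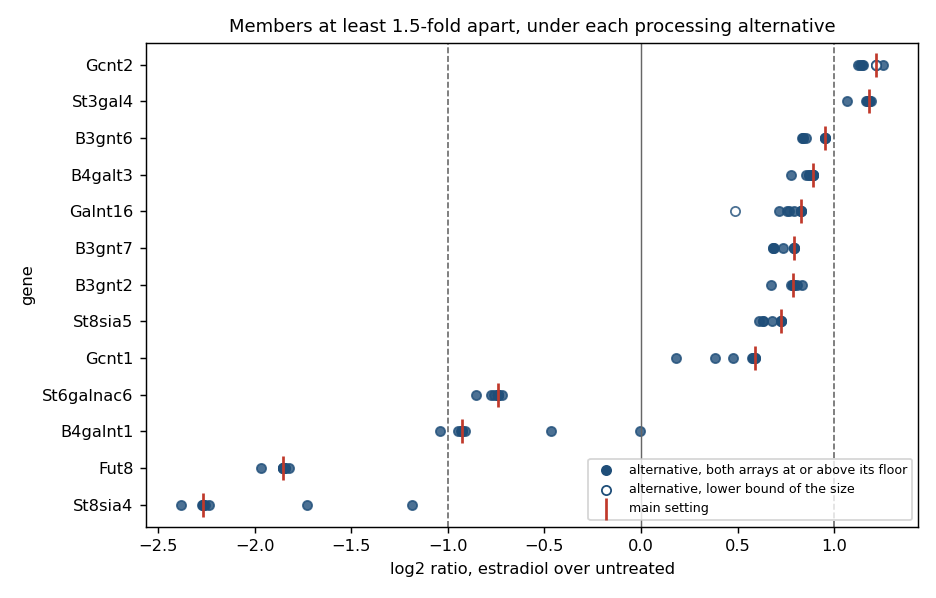
Log2 ratios of estradiol over untreated for the 13 members at least 1.5-fold apart, with the main value as a red bar and each processing alternative as a point; open points, and the main value of Gcnt2, are lower bounds of the size and dashed lines mark 2-fold. St8sia4 (-2.38 to -1.19), Fut8 (-1.97 to -1.82) and St3gal4 (1.07 to 1.19) lie past 2-fold, although Fut8 and St3gal4 had 1 measured probe set each and could not move with its choice, and B4galnt1 runs from -1.04 to -0.00.

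With the common median, quantile normalization, loess, or no floor and 16 added, St8sia4, Fut8 and St3gal4 remained past 2-fold. The other floors could not move these bright genes. The choice of probe set could move St8sia4, to -1.19 with the smallest ratio, but not Fut8 or St3gal4, which had 1 measured probe set each.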

How the data were processed

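Per the labels, total RNA of 2 samples was labelled with biotin and hybridised, and GCOS was named in the submitters' processing notes, while its version and algorithm are not given in the sources used here. Deposited values were signal intensities on a linear scale, 1 per probe set for 45101 probe sets, with medians of 91.7 untreated and 99.0 with estradiol and a trimmed mean of 500.003 on both arrays. The target and any centring by the authors are not stated. The number of arrays limits the precision.

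Probe sets were named through the supplied platform annotation: 34945 had 1 symbol, 932 several and 9160 none, and 64 were controls. All 85 member genes matched RefSeq by Entrez identifier with no symbol changed. Both arrays were scaled to 1 trimmed mean (2% from each tail, controls left out), which changed signals by factors of 0.999941 and 1.00006. With 1 array reaching the floor, the other was raised to it and the log2 ratio is a bound. Named were members past 1.5-fold or with such a bound, measured sialyl- and fucosyltransferase genes, the gene of highest signal in each family and genes whose probe sets disagreed, with the rest as ranges or examples. The members follow the symbol rule, but that rule and the lists were chosen with earlier results of these data known. Alternatives were other scalings (as deposited, common median, quantile, loess with span 0.3), floors (30th and 70th percentile, none with 16 added), probe set choices (the median, the smallest ratio) and thresholds (1.5-fold, 3-fold). Calls at the 2-fold threshold in the main setting were tried on simulated data, with differences placed in genes well above the floor. No difference between 1.5-fold and 3-fold was placed, so calls near 2-fold, such as that of St3gal4, were not checked. The simulated noise was the SD between probe sets, so false calls from differences between cultures were not covered. The simulated arrays had no offset between them and only measured genes were scored, so scaling and the floor were not checked. The work used pandas 2.3.3, numpy 2.4.6, matplotlib 3.10.9 and statsmodels 0.14.6 under Python 3.11.15.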

Additional observations from a re-analysis of the deposited data

How the results depend on the processing

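The count of members at least 2-fold lower stayed at 2 in every alternative of scaling, floor and probe set except the common median, where B4galnt1 (-1.04) made it 3. In these settings 0.858% to 2.81% of all measured genes were lower, with 1.57% at the common median. The count of higher members was 2 with the common median, quantile normalization, loess and the floor at the 30th percentile, since Gcnt2 then counted as measured (1.13 to 1.25). In those 4 settings 1.56% to 3.26% of all measured genes were higher. Higher members numbered 8 with no floor and 16 added, the further genes being dim: Fut2, Fut4, Galnt12, Galnt14, Galnt6, St6galnac2 and Gcnt2. All 85 members were then counted, and 3.73% of all genes were higher in that setting, against 2.04% of measured genes in the main one. At 1.5-fold 4 members were lower and 8 higher, where 4.85% and 7.11% of all measured genes were. At 3-fold 2 were lower and 0 higher, where 0.205% and 0.479% of all measured genes were. The common median shifted the median of all measured genes by -0.11 and their split of higher and lower calls from 209 and 113 to 160 and 161. The members' median ran from -0.22 at the 70th percentile floor to 0.17 at the 30th, and so changed sign. Alternatives were followed for 27 members, those past 1.5-fold or with such a bound and the measured sialyl- and fucosyltransferase genes. Among these 27, the log2 ratio moved by more than 0.25 for St8sia4, B4galnt1, St6galnac3, St6galnac4, Galnt16, Gcnt1 and St3gal5. St6galnac3 changed sign, from -0.29 to 0.28 with the smallest ratio. St8sia6 went from 0.04 to between -0.08 and -0.07 with the common median, quantile normalization and loess. Other members were not followed singly, although probe set choice also matters for some of them. Examples are Mgat4a (-0.55 and -0.05 on its 2 measured probe sets) and B4galt6 (-0.28 and 0.25). Many alternatives could not move a given gene, such as a probe set choice where 1 was measured. With the median over probe sets and with the smallest ratio, B4galnt1 was at -0.47 and -0.00. No paired analysis was possible because each group held 1 array, and no array could be left out for the same reason.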

Other observations

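Genes that modify or carry the finished chains were described as well. Of 13 sulfotransferase genes of glycans 5 were measured, and Chst11, which sulfates chondroitin, read 959 untreated and 1937 with estradiol (log2 ratio 1.01, 2.02-fold higher), with 0.95 on its second probe set. Chst10, which makes the HNK-1 epitope, read 1043 and 2052 (0.98), and the other 3 ranged from -0.19 to 0.22. Of 5 sialidase and fucosidase genes 3 were measured, with a median of 0.57. The lysosomal sialidase gene Neu1 read 227 and 431 (0.93, 1.90-fold higher), though its second measured probe set, close to the floor, read 100.1 and 98.7 (-0.02). Fuca1, the lysosomal fucosidase gene, gave 0.57 on its main probe set and -0.59 to 0.61 over 3, which disagree.

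Carriers of polysialic acid and of selectin ligands gave values in both directions. They were listed together with the selectin genes Selp and Sele, which lay below the floor on both arrays. Of the 12 listed genes 7 were measured, with a median of 0.40. Ncam1, the best known carrier of polysialic acid, was below the floor on both arrays in all 7 of its probe sets, and the carrier gene Nrp2 read 229 and 337 (0.55). The CD44 gene Cd44 read 4635 and 6852 (0.56), with measured probe sets up to 0.88. Glg1, which encodes an E-selectin ligand, read 660 and 1139 (0.79, from 0.24 over its probe sets). Spn, the sialomucin CD43 gene, read 2373 and 1550 (-0.61), with -0.52 on its second probe set. Selplg, the P-selectin ligand gene, read 352 and 466 (0.40). Cd24a read 9773 and 10384 (0.09), and Podxl 3853 and 2942 (-0.39).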
